A study of Mus musculus with 11 samples.

Results

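The collagen processing and crosslinking enzymes examined here were 10 genes: the lysyl oxidase genes Lox, Loxl1, Loxl2, Loxl3 and Loxl4, the lysyl hydroxylase genes Plod1, Plod2 and Plod3, and the procollagen C-proteinase enhancer genes Pcolce and Pcolce2. They were chosen by name and function, with earlier results of these data known. All 10 were found among the 28222 genes of the count table. RNA levels were measured in 11 libraries of mouse mesenchymal stem cells (MSCs), grown at 2% O2 in αMEM with 10% FBS in every group. Young mice were 3 to 5 months of age and old mice 18 to 22 months. The groups were 4 young libraries of batch A, 2 young and 2 old libraries of batch B, and 3 old libraries of batch C, so that both ages were present only in batch B. The labels give neither strain, sex nor treatment, and they do not say what a batch was or whether libraries came from separate animals or cultures, so that p-values measure the spread between these libraries, which may be technical.

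Fibrillar collagen is made as procollagen, which is modified inside the cell and then trimmed and crosslinked outside it. Lysyl hydroxylases act on lysines of the nascent chains in the endoplasmic reticulum. The secreted procollagen loses its C-terminal propeptide to proteinases of the Bmp1 family, whose action is enhanced by the Pcolce proteins. Lysyl oxidases, which are copper-dependent amine oxidases, then turn lysines and hydroxylysines of collagen, and lysines of elastin, into aldehydes that react to form the crosslinks of the matrix. MSCs and the osteoblasts that derive from them are major producers of collagen type I in bone.

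Totals were between 11969336 and 20315934 counts per library. Levels are given as CPM, the counts of a gene scaled to a common library total corrected by TMM factors (0.887 to 1.17), which allow for unequal composition, and a count of 3, taken as the smallest detectable level, was worth 0.148 to 0.251 CPM before that scaling. The rarest value of any of the 10 genes was 153 counts. All 9 mesenchymal markers on the list were counted in all 11 libraries, with a summed level of 2903 to 3546 CPM. The 10 haematopoietic markers were also counted in every library, with sums of 631 to 1378 CPM in A young, 356 to 732 CPM in B young, 722 to 1044 CPM in B old and 122 to 145 CPM in C old. The 5 osteoblast markers summed to 254 to 302 CPM, 201 to 228 CPM, 361 to 389 CPM and 477 to 669 CPM in the same order. The 6 endothelial markers summed to at most 10.5 CPM and the 5 erythroid markers, all at 0 counts in A young, to at most 3.83 CPM. In these bulk libraries, fewer cells of a type and less RNA per cell cannot be told apart.

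Promoter sequences of Loxl4, Plod1, Plod3, Pcolce and Pcolce2 were present in the RefSeq table (GRCm38.p6), and those of Lox, Loxl1, Loxl2, Loxl3 and Plod2 were not. The stretches of the 3 genes that passed the test for age (Plod1, Pcolce and Pcolce2, below) are shown 5′ to 3′ on the strand of the gene, trimmed of annotated exons. Capitals mark GGGCGG, the core of the GC box, or its complement CCGCCC.
Plod1: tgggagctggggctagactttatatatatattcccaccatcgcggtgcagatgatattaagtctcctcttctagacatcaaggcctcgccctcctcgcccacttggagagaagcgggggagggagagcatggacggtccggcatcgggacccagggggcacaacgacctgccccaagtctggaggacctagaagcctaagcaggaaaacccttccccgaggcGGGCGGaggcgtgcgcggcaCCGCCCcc
Pcolce: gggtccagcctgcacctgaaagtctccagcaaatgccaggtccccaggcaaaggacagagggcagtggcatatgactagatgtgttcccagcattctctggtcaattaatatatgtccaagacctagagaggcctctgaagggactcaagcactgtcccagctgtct
Pcolce2: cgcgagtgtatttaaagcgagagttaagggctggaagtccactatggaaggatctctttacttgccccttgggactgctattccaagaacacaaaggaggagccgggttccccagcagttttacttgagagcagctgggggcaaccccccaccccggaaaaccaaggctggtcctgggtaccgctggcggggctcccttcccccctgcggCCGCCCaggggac
The Plod1 stretch spans chr4:147936777-147937026 on the minus strand, and ends at the base before the RefSeq start. The Pcolce stretch spans chr5:137611488-137611654 on the minus strand, from 250 to 84 bases before the RefSeq start, and lies between annotated exons of the longer GENCODE gene. The Pcolce2 stretch spans chr9:95637378-95637600 on the plus strand, from 250 to 28 bases before the start. On either strand of the 250 bases before the start, GGGCGG was found in 4 of the 5 promoters, with 3 matches in Loxl4, 2 in Plod1, and 1 each in Pcolce (outside the stretch shown) and Pcolce2, against 32.7% of 32851 mouse promoters. ACGTG, the core of the hypoxia response element, was found in 1 of the 5 (Plod3), against 16.6% of all promoters, and CCAAT in 1 of the 5 (Plod3), against 33.8%. These matches describe letters in a window and not binding sites.

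Lox stood far above the other 9 genes. It took between 0.782% and 1.17% of all counts of a library and ranked between 5 and 7 among the coding genes by counts. Per kilobase of exon, the scale on which genes can be compared, its level averaged 2097 CPM per kb, and it ranked between 6 and 16 among 18094 coding genes. Pcolce followed at 268 CPM per kb, so that Lox was 6.82 to 9.31 times as high as Pcolce in a library. Plod3 (101 CPM per kb), Loxl2 (85.3), Plod2 (59.5), Loxl1 (47.9) and Plod1 (47.2) lay close together, and the ranges of the neighbours in this order overlapped. Loxl3 (21.3 CPM per kb), Loxl4 (12.3) and Pcolce2 (4.87) were the lowest. Lox, Pcolce and Pcolce2 held the first, the second and the last place in all 11 libraries. On this scale Plod3 lay above Loxl2 in all 6 young libraries and below it in all 5 old ones. Which gene lies higher can depend on the length used. The union of exons was 4519 bases for Plod3 and 5405 for Loxl2, and the longest transcripts had 3280 and 5316 bases. Divided by the longest transcript, the levels put Plod3 above Loxl2 in the old libraries as well. The switch of order between the ages therefore held only with the union of exons.

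**Figure D1:**
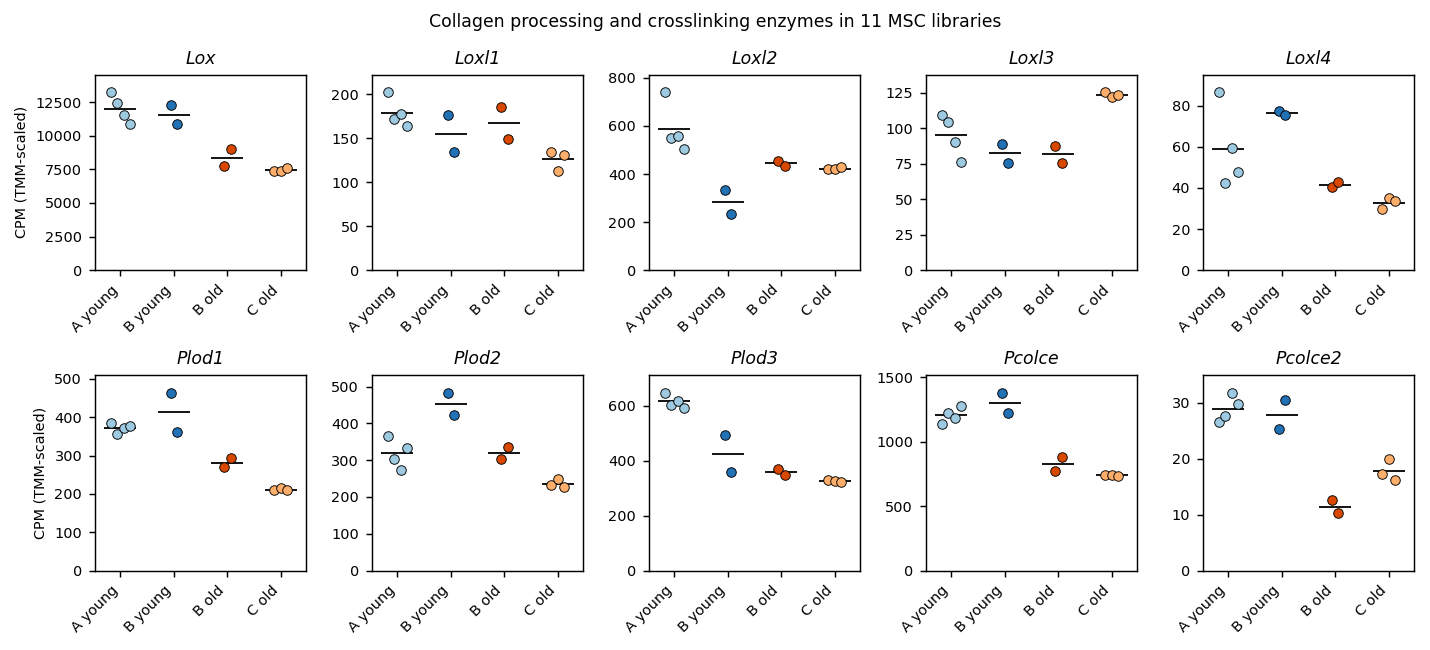
Level of each of the 10 genes in CPM on TMM-scaled totals (vertical axes, each from 0), in the 4 groups of libraries; a point is a library and a line is the mean of its group. Lox, Plod1, Pcolce and Pcolce2 were lower in all 5 old than in all 6 young libraries, and Loxl2 lay at 233 and 333 CPM in B young, below every other library.

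Lox encodes the founding member of the lysyl oxidase family. The gene (ENSMUSG00000024529) lies on chromosome 18 at 52516067 to 52529867 of GRCm38, on the minus strand. In batch B, Lox was at 12295 and 10843 CPM in the young and at 7757 and 9000 CPM in the old libraries. Both old libraries lay below both young ones, with a log2 fold change of -0.45 (SE 0.14), which did not pass the threshold of 0.05 (edgeR, adjusted p = 0.112). In A young it was at 13224, 12433, 11525 and 10853 CPM and in C old at 7365, 7384 and 7561 CPM. The highest old library of any batch was thus below the lowest young one.

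Loxl1, whose product acts in the assembly of elastic fibres, lies on chromosome 9 at 58287738 to 58313186 (minus strand). It was at 176 and 134 CPM in B young and at 186 and 149 CPM in B old, so that the ages overlapped (log2 fold change 0.12, SE 0.15, edgeR adjusted p = 0.740). The levels were 202, 171, 177 and 164 CPM in A young and 135, 113 and 131 CPM in C old. C old had the lowest mean of the 4 groups, 126 ± 11.8 CPM (SD, n = 3).

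Loxl2 encodes a lysyl oxidase that also crosslinks basement membrane collagen. It lies on chromosome 14 at 69609068 to 69695834 (plus strand). It was at 333 and 233 CPM in B young and at 455 and 434 CPM in B old, with both old libraries above both young ones. It was the only one of the 10 genes with that order, and the log2 fold change of 0.66 (SE 0.17) did not pass the threshold (edgeR, adjusted p = 0.0594). In A young the levels were 740, 550, 557 and 504 CPM and in C old 421, 419 and 429 CPM. All 3 C old libraries therefore lay below all 4 A young ones, the opposite order to that of batch B.

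Loxl3, known for its role in palate and cartilage development, lies on chromosome 6 at 83034173 to 83052562 (plus strand). It did not separate the ages in batch B, with 89.0 and 75.4 CPM in the young and 87.6 and 75.6 CPM in the old libraries (log2 fold change -0.00, SE 0.15, edgeR adjusted p = 0.999). The 95% interval of that difference ran from -0.29 to 0.29. In A young it was at 110, 105, 90.3 and 76.0 CPM. The C old libraries, at 125, 122 and 124 CPM, were the highest of all. Exons of Loxl3 overlap those of Htra2 on the opposite strand, and Htra2 itself was at 16.3 to 25.2 CPM.

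Loxl4 is a further member of the family that lies on chromosome 19 at 42593982 to 42612813 (minus strand). It was at 77.4 and 75.2 CPM in B young and at 40.6 and 42.7 CPM in B old. The ages did not overlap (log2 fold change -0.86, SE 0.23, edgeR adjusted p = 0.0631). A young was the most variable group, with 86.5, 42.4, 59.5 and 47.6 CPM, and A young 2 came close to the old libraries of batch B. C old was at 29.9, 35.1 and 33.7 CPM, below every other library.

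Plod1 encodes the lysyl hydroxylase that acts on lysines of the collagen triple helix. It lies on chromosome 4 at 147909753 to 147936767 (minus strand). It was at 464 and 363 CPM in B young and at 269 and 293 CPM in B old, and it fell with age, to 0.686 times the young level (log2 fold change -0.54, SE 0.12, edgeR adjusted p = 0.0231). A young (384, 356, 371 and 377 CPM) and C old (209, 214 and 210 CPM) did not overlap either.

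Plod2 encodes the lysyl hydroxylase of the telopeptides, the short ends of the collagen molecule from which crosslinks start. It lies on chromosome 9 at 92542223 to 92608428 (plus strand). It was at 484 and 423 CPM in B young and at 303 and 336 CPM in B old. Both old libraries lay below both young ones, and the log2 fold change of -0.49 (SE 0.13) was not called (edgeR, adjusted p = 0.0705). A young, at 367, 304, 273 and 333 CPM, enclosed the range of B old. C old was lower, at 232, 248 and 227 CPM.

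Plod3, whose product also adds sugars to hydroxylysine, lies on chromosome 5 at 136987019 to 136996648 (plus strand). It was at 494 and 358 CPM in B young and at 372 and 349 CPM in B old, and the ages overlapped (log2 fold change -0.23, SE 0.13, edgeR adjusted p = 0.410). In A young it was at 649, 605, 618 and 594 CPM and in C old at 328, 328 and 321 CPM. The A young libraries were thus the highest and the C old libraries the lowest. Exons of Plod3 overlap those of Znhit1 on the opposite strand, which was at 21.2 to 30.6 CPM.

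Pcolce encodes the main procollagen C-proteinase enhancer and lies on chromosome 5 at 137605103 to 137613784 (minus strand). It was at 1379 and 1218 CPM in B young and at 774 and 880 CPM in B old, and it fell to 0.642 times the young level (log2 fold change -0.64, SE 0.12, edgeR adjusted p = 0.00922). A young was at 1136, 1224, 1184 and 1273 CPM and C old at 737, 742 and 733 CPM. No old library reached the lowest young one. Fbxo24, which shares exon bases with Pcolce on the same strand, had at most 4 counts in a library.

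Pcolce2, a second enhancer of the same kind, lies on chromosome 9 at 95637601 to 95698096 (plus strand). It was at 25.2 and 30.5 CPM in B young and at 12.6 and 10.2 CPM in B old, and it fell to 0.414 times the young level (log2 fold change -1.27, SE 0.16, edgeR adjusted p = 0.000847), the largest difference among the 10 genes. A young was at 26.5, 27.6, 31.8 and 29.8 CPM. C old was at 17.3, 19.9 and 16.2 CPM, between B old and the young libraries.

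In the comparison of old with young MSCs, which the study's description names as its purpose, both enhancer genes and 1 of the 3 lysyl hydroxylase genes fell, and none of the 5 lysyl oxidase genes passed the test. The fit used all 11 libraries with batch as a term, so that the difference came from batch B and the spread from all libraries. Of all 16132 genes tested, 2.23% passed the threshold, 1.54% as lower and 0.694% as higher in old, against 3 lower (Plod1, Pcolce and Pcolce2) and 0 higher of the 10 enzymes. At an unadjusted p under 0.05, 16.1% of all genes passed, against 6 lower and 1 higher (Loxl2) of the 10. The 10 genes had a median log2 fold change of -0.47, against 0.00 for all genes. Both old libraries lay below both young ones for 6 of the 10, against 21.2% of all genes. They lay above them for 1 of the 10, against 18.6%. The ages thus did not overlap for 7 of the 10 and for 39.8% of all genes. Because the 10 were chosen with earlier results of these data known, these shares describe them and are not a test of the set.

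The calls differed in how far they rested on 1 library. The 22 alternatives for age were not independent of each other. In the fits without a library of batch A or C, the difference still came from the same libraries of batch B. A young against C old, also among the 22, held no library of batch B and changed batch with age. Pcolce2 passed under all 22 alternatives, with adjusted p-values up to 0.0139. Pcolce passed in 20 of 22 and did not pass without B old 1 (log2 fold change -0.54, adjusted p = 0.155) or in batch B alone (adjusted p = 0.192). Plod1 passed in 16 of 22, and its adjusted p was 0.264 without B old 1, 0.0729 without B old 2, 0.109 without B young 1, 0.0523 without C old 3 and 0.260 in batch B alone. In the other direction, Lox passed without B young 2 (adjusted p = 0.0257), as did Plod2 (0.0200) and Plod3 (0.0159). Without A young 1, Loxl2 (0.0155), Loxl4 (0.00344) and Plod2 (0.0339) passed. Loxl4 also passed without A young 2 (0.0308), and Loxl2 without B young 1 (0.0239). All of these values are from edgeR. The number of the 10 genes called was 1 without B old 1 and 6 without B young 2 or without A young 1, and the number of all genes called was 84, 2007 and 578, respectively.

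Sums of other markers also differed between the ages in batch B, with a small overlap for the haematopoietic ones. The haematopoietic sum was 356 and 732 CPM in the young against 722 and 1044 CPM in the old libraries, and the osteoblast sum 201 and 228 CPM against 361 and 389 CPM. Of the 5 osteoblast markers, all with a higher value in old, 1 passed, Alpl (log2 fold change 0.98, edgeR adjusted p = 0.00287). Runx2 was at 0.02. The share of mitochondrial transcripts was 3.74% in B old 1 and 1.33% in B old 2, against 0.943% and 1.85% in B young. The mesenchymal sum, of which Itgb1 alone made up 1031 to 1259 CPM over the 11 libraries, was 3530 and 3290 CPM in the young against 3086 and 3027 CPM in the old libraries, without overlap. Of its 9 markers 7 had a lower and 2 a higher value in old, and 2 fell, Pdgfra (log2 fold change -0.86, edgeR adjusted p = 0.00590) and Nt5e (-1.34, edgeR adjusted p = 0.00932). The part of these markers and shares in the age differences was not tested. Between A young and C old the haematopoietic sum had the opposite order, with C old the lowest of the 4 groups.

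C old and A young share no library with batch B and give a further set of old and young libraries, in which age and batch cannot be told apart. This comparison was added after the data had been seen. All 10 genes passed the threshold there, 9 as lower in C old and 1 (Loxl3, log2 fold change 0.45, SE 0.10) as higher, where 63.8% of 15021 genes passed, 31.9% as lower and 32.0% as higher. With TMM factors, Pcolce had the same log2 fold change in both sets, -0.64 (SE 0.12 in batch B and 0.07 between C old and A young). Plod1 was at -0.75 (SE 0.06), Lox at -0.62 (SE 0.09), Loxl4 at -0.78 (SE 0.19), Pcolce2 at -0.63 (SE 0.10) and Plod2 at -0.37 (SE 0.09). These 6 genes lay lower in old without overlap in both sets, against 8.93% of the 15021 genes. With levels scaled to total counts in place of TMM, 4 of the 10 (Lox, Plod1, Pcolce and Pcolce2) did so, against 3.43%. With it, all genes between C old and A young had a median of 0.31 in place of 0.02, and 6 of the 10 passed as lower, without Loxl1, Loxl2 and Plod2. Pcolce was then at -0.35 between C old and A young. Over all genes 9948 then passed, 27.5% of them as lower, against 49.9% of 9585 with TMM. The other 4 of the 10 genes did not have this order in both sets. Loxl2 was at 0.66 in batch B and at -0.40 (SE 0.11) between C old and A young, Loxl1 at 0.12 and -0.43 (SE 0.09), and Plod3 at -0.23 and -0.85 (SE 0.07).

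**Figure D2:**
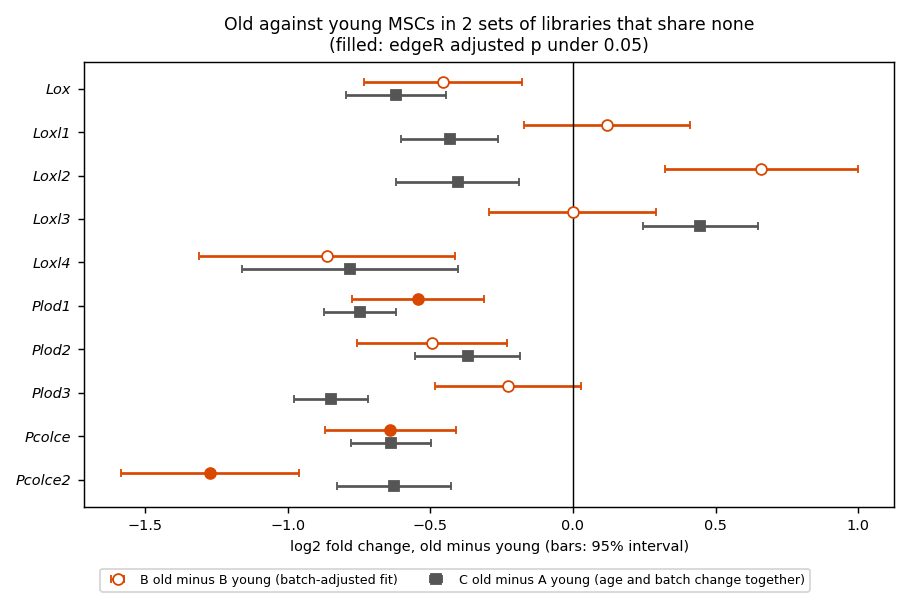
Log2 fold change of old minus young (horizontal axis, bars are 95% intervals) for each gene, as circles for batch B in the fit with a batch term and as squares for C old against A young, where batch changes too; filled marks have an edgeR adjusted p under 0.05. With TMM factors, Pcolce lay at -0.64 in both sets, whereas Loxl2 lay at 0.66 in batch B and at -0.40 between C old and A young.

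At the same age, 3 of the 10 genes differed between batches B and A, 1 as higher and 2 as lower in batch B, against 18.1% of 14840 genes (9.39% higher and 8.71% lower). The same 3 were the ones whose libraries did not overlap, where 40.6% of all genes did not, 20.8% as higher and 19.9% as lower. In young MSCs Loxl2 was lower in batch B, at 283 ± 70.6 CPM (SD, n = 2) against 588 ± 104 CPM (n = 4), a log2 difference of -1.04 (SE 0.18, edgeR adjusted p = 0.00389). Plod2 was higher in batch B, at 453 ± 43.1 CPM against 319 ± 40.1 CPM (0.52, SE 0.14, adjusted p = 0.0231), and Plod3 lower, at 426 ± 96.2 CPM against 616 ± 23.6 CPM (-0.52, SE 0.14, adjusted p = 0.0263). Lox, with 11569 ± 1027 CPM in B young and 12008 ± 1037 CPM in A young, had a log2 difference of -0.04 with a 95% interval of -0.34 to 0.26. None of the 3 calls remained without B young 2, where Loxl2 had an edgeR adjusted p of 0.0507, Plod2 of 0.0581 and Plod3 of 0.184, and where 511 genes in place of 2686 passed. Plod2 also did not pass without B young 1 (adjusted p = 0.0617), A young 2 (0.0625) or A young 3 (0.0881), nor Plod3 without A young 2 (0.0540), A young 3 (0.0768) or A young 4 (0.0590), and without A young 1 Loxl4 passed (0.63, adjusted p = 0.0125). The number of all genes called was 1293 without A young 3, 1726 without A young 4 and 4031 without B young 1. The haematopoietic markers moved too, with 5 of 10 lower in batch B, and their part was not tested.

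In old MSCs, 6 of the 10 genes differed between batches C and B, 2 as higher and 4 as lower in batch C, where 64.7% of 15651 genes did, 32.1% as higher and 32.6% as lower. The libraries of the batches did not overlap for any of the 10, with 2 above and 8 below, where 76.2% of all genes did not overlap (38.5% above and 37.7% below). Loxl3 was higher in batch C, at 124 ± 1.78 CPM (SD, n = 3) against 81.6 ± 8.49 CPM (n = 2), a log2 difference of 0.60 (SE 0.07, edgeR adjusted p = 2.05e-05). Pcolce2 was higher as well, at 17.8 ± 1.91 CPM against 11.4 ± 1.72 CPM (0.64, SE 0.13, adjusted p = 0.00119). Plod2 (-0.44), Plod1 (-0.41), Loxl1 (-0.40) and Loxl4 (-0.34) were lower in batch C, with edgeR adjusted p-values of 0.000185, 0.000142, 0.00377 and 0.00442. The values of Lox (-0.17), Plod3 (-0.14), Pcolce (-0.16) and Loxl2 (-0.07) did not pass. With scaling to total counts, which moved the median of all genes from 0.02 to 0.22, Loxl1 (-0.21, adjusted p = 0.0818) and Loxl4 (-0.15, adjusted p = 0.153) did not pass, and Lox, Loxl2, Plod3 and Pcolce were above 0. Without B old 1, Lox (adjusted p = 0.00180) and Pcolce (0.00426) passed as lower, and without B old 2 Plod3 did (0.0275). All 10 haematopoietic markers were lower in batch C and 4 of the 5 osteoblast markers higher, and their part was not tested.

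Scaling to total counts also moved the balance between higher and lower genes among all genes called. The share of higher genes among the calls went from 31.1% to 44.8% for age, from 51.9% to 66.4% for batch B against A, and from 49.6% to 62.9% for batch C against B.

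Within the families, Lox made up 92.4% of the summed lysyl oxidase level per kb over the 11 libraries. Loxl2 was the second in the family. Its share was 2.04% ± 0.321 in B young (SD, n = 2) and 4.32% ± 0.528 in B old (n = 2), and 3.99% ± 0.391 (n = 4) in A young and 4.58% ± 0.015 (n = 3) in C old. Among the lysyl hydroxylases, Plod3 was the highest in all groups, with 54.5% ± 1.64 in A young, 39.2% ± 2.37 in B young, 44.2% ± 2.75 in B old and 49.1% ± 0.680 in C old. The share of Plod2 was 23.6% ± 2.01 in A young and between 29.7% and 35.3% on average in the other 3 groups. The ratio of Plod2 to Plod1 per kb therefore averaged 1.08 in A young, 1.38 in B young, 1.42 in B old and 1.40 in C old, so that it separated batch A from the others and not the ages. Pcolce made up 98.2% of the enhancer level, and it was 57.2 ± 12.6 times as high as Pcolce2 per kb in B young, 89.1 ± 21.3 times in B old, 50.6 ± 3.82 times in A young and 50.5 ± 4.93 times in C old.

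**Figure D3:**
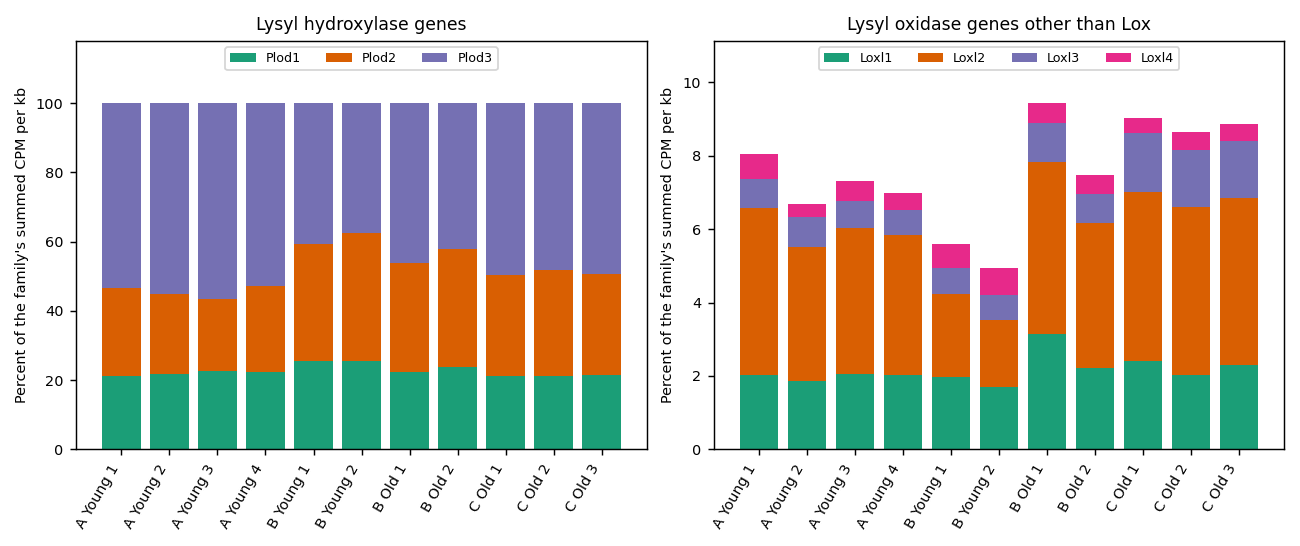
Percent of the summed CPM per kb of each family in each of the 11 libraries, for the lysyl hydroxylase genes (left) and for the lysyl oxidase genes other than Lox (right, part of a total of 100% with Lox). Plod3 took 54.5% of its family on average in A young and 39.2% in B young, and Loxl2 took 2.04% in B young against at least 3.65% in every library of the other groups.

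Levels were also set against that of Col1a1, which encodes the α1 chain of collagen type I, the main substrate. Per 100 units of Col1a1 per kb, Lox stood at 50.7 ± 16.4 in B young and 50.4 ± 3.41 in B old, at 29.6 ± 3.37 in A young and at 54.2 ± 1.51 in C old. Pcolce stood at 7.11 ± 2.30 in B young, 6.21 ± 0.330 in B old, 3.71 ± 0.395 in A young and 6.72 ± 0.163 in C old. For both genes the means of the ages in batch B differed by less than the SD of B young, while A young was the lowest group. Loxl2 stood at 1.06 ± 0.175 in B young and 2.37 ± 0.166 in B old, and at 1.28 ± 0.223 in A young and 2.72 ± 0.0822 in C old. On this scale Loxl2 was thus higher in every old than in every young library, with 1.59 as the highest young and 2.25 as the lowest old value. The scale also carries the differences of Col1a1 itself. Col1a1 averaged 56047 CPM in A young, 33561 CPM in B young, 22821 CPM in B old and 18855 CPM in C old. In CPM, Loxl2 was lower in C old (423) than in A young (588).

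Most other genes of collagen processing did not pass the test for age. Of 34 genes listed, 33 were in the table and 30 were tested. Of these 30, 3 fell and the rest did not pass the edgeR test, where 1.54% of all genes passed as lower and 2.23% in either direction. The 30 genes had a median log2 fold change of -0.07, against 0.00 for all genes. Those that fell were Fmod, a small leucine-rich proteoglycan that binds collagen and lysyl oxidase (-0.86, SE 0.16, adjusted p = 0.00922), P3h2, a prolyl 3-hydroxylase (-1.09, SE 0.23, adjusted p = 0.0215), and Efemp2, the fibulin that tethers lysyl oxidase to elastin (-0.50, SE 0.12, adjusted p = 0.0375). By role, 2 of the 7 lysyl oxidase partners and 1 of the 10 genes of prolyl hydroxylation passed. None of the 7 tested genes for chaperones, glycosylation and export and none of the 6 tested propeptide proteinases passed in edgeR. At an unadjusted p under 0.05, 1 gene of these roles passed, Kdelr3 (log2 fold change 0.32, edgeR adjusted p = 0.254). Of the 10 collagen and elastin substrates, with a median of -0.45, only Col11a2 fell (-2.38, SE 0.48, edgeR adjusted p = 0.0164), a gene named here after its value was seen, at 3.05 CPM in B old and 15.9 CPM in B young on average. The B young mean came from libraries at 5.31 and 26.5 CPM. Col11a2 averaged 7.57 CPM in A young and 7.43 CPM in C old.

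**Figure D4:**
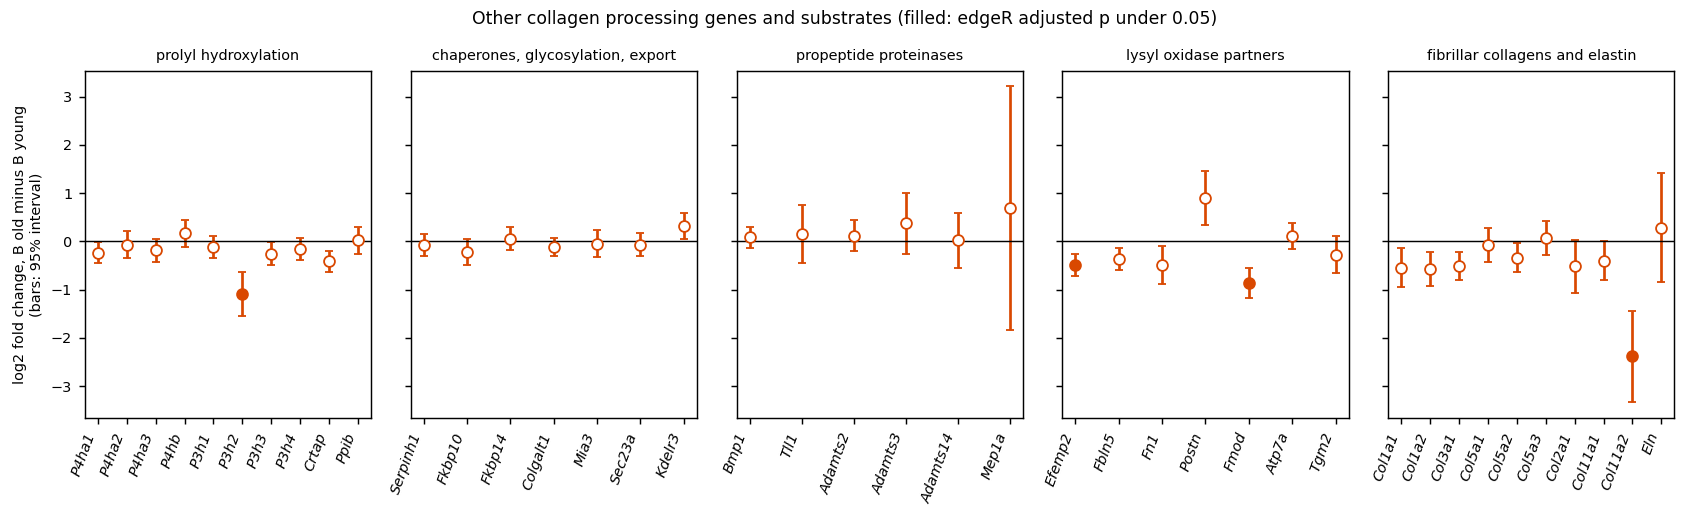
Log2 fold change of old minus young in batch B from the fit with a batch term (vertical axis, bars are 95% intervals) for the tested genes of collagen processing outside the 10 enzymes and for fibrillar collagens and elastin, grouped by role; filled points have an edgeR adjusted p under 0.05. P3h2 (-1.09), Efemp2 (-0.50), Fmod (-0.86) and Col11a2 (-2.38) are the filled points.

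Between batches, more genes passed both in this list and over all genes. In batch B against A, 29 genes of the list were tested, of which 7 were higher and 2 lower, where 9.39% of all genes were higher and 8.71% lower. Kdelr3 (0.74), a receptor that returns proteins to the endoplasmic reticulum, P4ha1 (0.61), a subunit of prolyl 4-hydroxylase, Sec23a (0.60), a coat protein of export vesicles, and Fkbp14 (0.52), a chaperone of collagen folding, were higher in B young. Fn1 (-0.88), which encodes fibronectin, and Fmod (-0.60) were lower. In batch C against B, 5 of 29 were higher and 17 lower, where 32.1% of all genes were higher and 32.6% lower. The 4 lower ones with the smallest p-values were Kdelr3 (-1.38) and, with roles in the folding and prolyl hydroxylation of procollagen, Ppib (-1.34), P4hb (-1.06) and P4ha2 (-0.75). The 4 higher ones chosen in the same way were P3h3 (0.46), P3h2 (0.80), Adamts14 (0.61) and Crtap (0.17).

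Among the 10 genes, the most alike patterns over the 11 libraries were those of Plod1 and Pcolce, with a root mean square difference of 0.107 in log2 CPM after each gene was centred on its mean. Lox and Pcolce (0.118) and Lox and Plod1 (0.142) followed, and Loxl3 and Loxl4 were the least alike (0.672). Over 13555 genes, the ones closest to Lox were Timp2 (0.085), Nfe2l1 (0.088) and Chpf2 (0.090), where the median over all genes was 0.455. Closest to Plod2 were Cd164 (0.125), Scd1 (0.134) and Zmpste24 (0.145), and closest to Pcolce were App (0.075), Pcx (0.092) and Timp2 (0.093). These distances describe libraries that share batch and age and carry no test.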

How the data were processed

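Polyadenylated RNA of 11 MSC libraries was sequenced, and the authors deposited raw read counts per Ensembl gene and library, without normalisation. The submitters' processing notes name the builds mm10 and GRCm38. The aligner, the counter and the use of strand are not given in the sources used here, so that reads of overlapping genes can have been shared or lost. Identifiers were matched to GENCODE M21 (28179 of 28222 genes).

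Libraries were grouped by the age and batch in the labels. The counts were tested as deposited with edgeR 4.0.16 (quasi-likelihood test, two-sided) in R 4.3.3, with filterByExpr at a minimum count of 5, TMM factors and Benjamini-Hochberg adjustment over all genes tested, with a threshold of 0.05. The age fit held all 11 libraries and a batch term, batch B against A to the 6 young and batch C against B to the 5 old libraries. SEs are log2 fold changes divided by the square root of F, and 95% intervals take the normal distribution. CPM per kb used the union of exons. Alternatives were DESeq2 1.42.0, limma-trend (limma 3.58.1), RLE factors, total counts, other filters, a length and GC correction, a replicate block and leaving out each library. For age they were also no batch term, batch B alone and A young against C old, the last added after the data had been seen. The fits were also run on counts simulated with the same spread in every library. The groups here differed in spread, so that this run does not measure error rates for these data.

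All 10 enzymes were named. Of the listed collagen processing genes, those past the threshold for age (at most 6) and the 4 of smallest p per direction between batches were named, and for Lox, Plod2 and Pcolce the 3 genes of nearest pattern. The members and lists were chosen with earlier results of these data known. Batches are named as the labels name them. Within each group no 2 libraries agreed within sampling noise. Depth limits the precision of the rarest gene, Pcolce2, most, and floors cover counting error only.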

Additional observations from a re-analysis of the deposited data

How the results depend on the processing

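With a threshold of 0.05, 360 genes and 3 of the 10 enzymes were called for age. The numbers of genes and enzymes were 640 and 7 with DESeq2, where 6 of the enzymes were lower and 1 higher in old. They were 1094 and 7 without a filter, 2641 and 6 without a batch term, and 9585 and 10 between A young and C old. Batch B alone called 123 genes, with Pcolce2 among them but neither Pcolce nor Plod1. The length and GC correction called 539 genes and 5 enzymes. Leaving out each library gave 84 to 2007 genes and 1 to 6 enzymes. For batch B against A (2686 genes and 3 enzymes), leaving out each library gave 511 to 4031 genes and 0 to 4 enzymes. For batch C against B (10133 genes and 6 enzymes), the length and GC correction called 9881 genes and 10 enzymes. The causes were not tested. With the longest transcript in place of all exons, the share of Plod3 in its family went from 48.3% to 45.4% and that of Pcolce from 98.2% to 98.8%.

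Replicate numbers did not pair the libraries (correlation of deviations 0.036 between the ages of batch B). With the replicate number as a block, age called 294 genes and 3 enzymes (Loxl2 at 0.68, Pcolce and Pcolce2, but not Plod1), batch B against A 729 genes and 1 enzyme, with Pcolce2 at 0.0523, and batch C against B 9154 genes and 6 enzymes.

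Values of several genes changed sign, among them Loxl2, which was at 0.66 for age in the main fit, and Plod3, at -0.23. For age, Loxl3 was at 0.0086 with DESeq2, 0.0085 with RLE factors, 0.0636 with total counts, 0.0034 with a minimum count of 10, 0.058 with the length and GC correction, 0.26 without a batch term and 0.45 between A young and C old, and between -0.11 and 0.11 over the fits without 1 library. Loxl1 was at -0.24 without a batch term and -0.43 between A young and C old, and ranged from -0.0573 to 0.32 without 1 library. Loxl2 was at -0.15 and -0.40 in the same 2 fits, and Plod3 ranged from -0.44 to 0.00998 without 1 library. For batch B against A, total counts gave 0.0383 for Lox and 0.0407 for Pcolce2, and the length and GC correction 0.15 for Loxl1 and 0.0199 for Loxl3. Without 1 library Lox ranged from -0.12 to 0.0386, Pcolce2 ranged from -0.19 to 0.10 and Plod1 ranged from -0.0103 to 0.32. For batch C against B, total counts gave 0.0232 for Lox, 0.12 for Loxl2, 0.0515 for Plod3 and 0.0299 for Pcolce. Directions of Lox, Loxl4, Plod1, Plod2, Pcolce and Pcolce2 for age did not reverse in any of the 22 alternatives.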
